A study of Mus musculus with 16 samples.

Results

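Ebi3 and the genes it works with were described in whole skin after deletion of Mcpip1 from keratinocytes, myeloid cells or both. The 9 genes encode 5 secreted subunits of the IL-12 cytokine family (Ebi3, Il27, Il12a, Il12b and Il23a) and 4 receptor chains (Il27ra, Il6st, Il12rb1 and Il12rb2). They are 9 of 23930 amplicon targets in the count files, each with 1 target matched by gene symbol. They were selected on what is known of the family and on the levels that Ebi3 had shown in these same groups, so the levels below describe the 9 genes and do not test them.

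Mcpip1, also called Regnase-1, is the protein of Zc3h12a, an endoribonuclease that degrades mRNAs of many inflammatory genes. The design text sets out to compare skin of mice at 12 weeks of age after loss of the gene in the 2 cell compartments, with 4 mice in each of 4 groups. EMdKO mice were Zc3h12a(loxP/loxP) and carried both Cre alleles, LysMCre(Tg/Wt) and Krt14Cre(Tg/Wt). MKO mice were Zc3h12a(loxP/loxP)LysMCre(Tg/Wt), with the myeloid Cre alone. EKO mice were Zc3h12a(loxP/loxP)Krt14Cre(Tg/Wt), with the keratinocyte Cre alone. Control mice were Zc3h12a(loxP/loxP), with no Cre, so that the floxed gene was shared by all groups and no group had Cre without it. Krt14-Cre acts in basal keratinocytes and their progeny, and LysM-Cre acts in macrophages, neutrophils and other myeloid cells, so most other cells of the skin kept the gene. Sex was not used here, and no label says whether mice shared a litter or a cage.

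IL-12 family cytokines are dimers of an alpha chain and a beta chain, and the chains are shared. Ebi3 is a beta chain made mainly by activated antigen-presenting cells. It pairs with the alpha chain encoded by Il27 to form IL-27 and with the one encoded by Il12a to form IL-35. Il12b, the other beta chain, pairs with Il12a to form IL-12 and with Il23a to form IL-23. IL-27 signals through Il27ra and the shared chain Il6st (gp130), and IL-12 through Il12rb1 and Il12rb2. IL-23 uses Il12rb1 with Il23r. In skin, IL-23 is known for its place in psoriasis-like inflammation, IL-12 for interferon responses, and IL-27 for both activating and restraining T cells.

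The region upstream of Ebi3 is shown because Ebi3 is the gene on which the results turn, and that of Il12rb2 because it had the largest log2 fold change among the tested receptor chains. Each sequence is the 250 bases before the RefSeq transcription start, read 5′ to 3′ on the gene's strand in GRCm38.p6, at chr17:55952373-55952622 (plus strand) and chr6:67376189-67376438 (minus strand). Capitals in Ebi3 mark a match to the NF-kB consensus, the binding motif of the inflammatory factor NF-kB, and capitals in Il12rb2 mark a match to the STAT motif TTCNNNGAA, called GAS.
Ebi3: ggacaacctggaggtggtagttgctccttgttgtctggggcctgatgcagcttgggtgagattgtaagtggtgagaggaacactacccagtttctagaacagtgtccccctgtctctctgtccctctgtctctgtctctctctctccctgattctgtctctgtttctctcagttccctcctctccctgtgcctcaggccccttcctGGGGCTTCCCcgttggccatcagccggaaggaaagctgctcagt
Il12rb2: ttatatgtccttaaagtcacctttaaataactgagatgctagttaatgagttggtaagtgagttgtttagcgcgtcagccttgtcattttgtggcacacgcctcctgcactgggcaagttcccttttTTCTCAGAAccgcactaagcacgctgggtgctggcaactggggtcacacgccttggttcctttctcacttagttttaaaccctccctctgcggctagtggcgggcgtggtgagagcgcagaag
The Ebi3 match, GGGGCTTCCC, lay 44 to 35 bases before the start and read as a match on both strands. The Il12rb2 match, TTCTCAGAA, lay 123 to 115 bases before the start, also on both strands. The GAS motif reads the same on either strand, so any match to it lies on both. Over 32851 RefSeq promoter windows of mouse, each searched in the 250 bases before the start, 7.25% held an NF-kB match and 7.02% a GAS match on either strand. The motif GAGGAA of the myeloid factor PU.1 lay 176 to 171 bases before the start of Ebi3, and it was found in 23.3% of all windows. Il12b had PU.1 matches at 219 to 214 bases (minus strand) and 143 to 138 bases (plus strand) before its start. The AP-1 motif TGANTCA, found in 6.75% of all windows, was in none of the windows of the members that had an entry (Ebi3, Il12a, Il12b, Il6st and Il12rb2). Searches for motifs of Il12a and Il6st gave no match to the 4 motifs. A match describes letters and not a bound site.

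In RefSeq GRCm38.p6, Ebi3 lies at chr17:55952623-55957022, Il27 at chr7:126589009-126595035, Il12a at chr3:68690644-68698550, Il12b at chr11:44400063-44414677 and Il23a at chr10:128296140-128298084. Il27ra lies at chr8:84030286-84042600, Il6st at chr13:112464070-112506860, Il12rb1 at chr8:70808360-70823542 and Il12rb2 at chr6:67285986-67376293. The amplicon each target reads within its gene is not given in the sources used here. A level could therefore be compared between mice for 1 gene, but not between genes.

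The targeted gene was read first, as a check of the labels. Levels are given as CPM, a target's counts scaled to a common library total after TMM adjustment between libraries. Zc3h12a had 5.47, 5.69, 5.71 and 4.41 CPM in EMdKO mice 1 to 4, and 17.1, 35.0, 29.2 and 24.9 CPM in MKO mice. It had 11.7, 7.07, 7.40 and 8.41 CPM in EKO mice and 19.4, 21.7, 30.3 and 27.4 CPM in control mice. Every mouse with Krt14-Cre was below every mouse without it, while MKO mice overlapped control mice, in a tissue where myeloid cells are a minority. In the edgeR quasi-likelihood test the mean Krt14-Cre difference was -1.92 ± 0.17 (log2 fold change ± SE, Benjamini-Hochberg adjusted p = 4.2e-05) and the mean LysM-Cre difference was -0.30 ± 0.16 (adjusted p = 0.441). The mean LysM-Cre difference averages unlike values. In MKO against control skin Zc3h12a was at 0.10 ± 0.22 (edgeR adjusted p = 0.914). In EMdKO against EKO skin it was at -0.70 ± 0.23 (adjusted p = 0.672), with every EMdKO mouse below every EKO mouse. The whole-skin level therefore does not check the myeloid deletion in MKO mice, and what set EMdKO below EKO skin was not tested.

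Libraries held 6962474 to 12086327 counts, and 13633 targets passed the filter on low counts. Of the 9 genes, Ebi3, Il12a, Il6st, Il12rb1 and Il12rb2 passed it and were tested, and Il27, Il12b, Il23a and Il27ra did not. The skin pieces differed in composition. Summed hair shaft markers (8 of 10 listed genes measured) ran between 16.6 and 5025 CPM in EMdKO, 12.7 and 347.6 in MKO, 47.6 and 3297 in EKO and 28.9 and 20712 in control skin. EKO mouse 1 stood apart from the other EKO mice in its keratinocyte markers (summed 10831 CPM, against 29271 to 31602), and MKO mouse 1 in skeletal muscle markers (83094 CPM, against 31856 to 37433). Leaving out EKO mouse 1 moved the count of targets called in EKO against control skin (adjusted p under 0.05) to 127, against 0 with all mice.

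Ebi3 was higher in skin of every mouse with LysM-Cre than in skin of every mouse without it, at 2.62 (MKO) and 2.50 (EMdKO) times the control mean, whether or not Krt14-Cre was also present. It had 12.3, 14.7, 12.8 and 8.82 CPM in EMdKO mice 1 to 4, from 149, 121, 134 and 84 counts. MKO mice 1 to 4 had 9.88, 15.7, 11.1 and 14.3 CPM, from 63, 124, 93 and 114 counts. EKO mice had 3.20, 5.93, 4.37 and 4.07 CPM, from 31, 68, 36 and 31 counts, and control mice 2.35, 7.91, 5.33 and 3.87 CPM, from 19, 55, 57 and 31 counts. The lowest carrier was EMdKO mouse 4 at 8.82 CPM and the highest mouse without LysM-Cre was control mouse 2 at 7.91 CPM, so the 8 carriers and the 8 others did not overlap. In whole skin, more cells that make Ebi3 and more Ebi3 RNA per cell cannot be told apart.

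**Figure D1:**
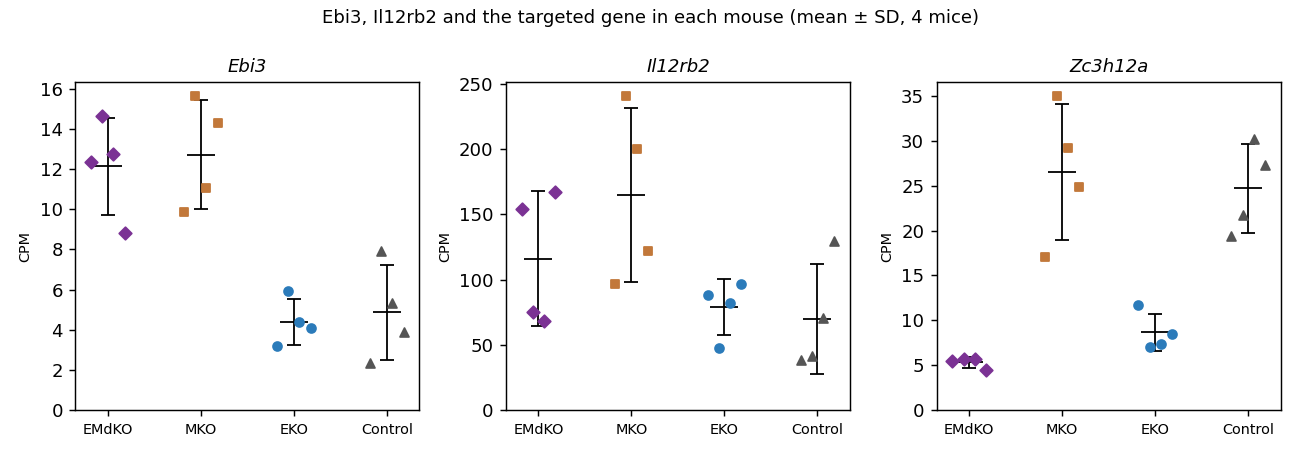
CPM of Ebi3, Il12rb2 and the targeted gene Zc3h12a (y axes) in each mouse of the 4 groups (x axis), with the mean and SD of 4 mice as a bar and error line. Ebi3 lies between 8.82 and 15.7 CPM in EMdKO and MKO mice and between 2.35 and 7.91 CPM in EKO and control mice, Il12rb2 overlaps between groups, and Zc3h12a is low in EMdKO and EKO mice.

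Ebi3 averaged 12.1 ± 2.43 CPM in EMdKO, 12.7 ± 2.71 in MKO, 4.39 ± 1.14 in EKO and 4.87 ± 2.37 CPM in control skin (SD, n = 4 each). By mean, MKO skin was highest and EKO skin lowest. EMdKO and MKO mice overlapped each other, as did EKO and control mice, and the gap lay between these pairs of groups. Taken over both backgrounds, carriers averaged 12.4 ± 2.40 CPM and mice without LysM-Cre 4.63 ± 1.74 CPM (SD, n = 8 each). The ratio of group means was 2.62 for MKO over control skin, 2.50 for EMdKO over control skin and 2.76 for EMdKO over EKO skin. It was 0.90 for EKO over control skin and 0.95 for EMdKO over MKO skin.

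The fitted values described the same order. Ebi3 differed by a log2 fold change of 1.39 ± 0.31 (SE) in MKO against control, 1.32 ± 0.30 in EMdKO against control and 1.46 ± 0.30 in EMdKO against EKO skin. For Krt14-Cre it was -0.14 ± 0.31 in EKO against control and -0.07 ± 0.29 in EMdKO against MKO skin. Averaged over both backgrounds the LysM-Cre difference was 1.43 ± 0.22 and the Krt14-Cre difference -0.10 ± 0.21, and the difference between the LysM-Cre effects in the 2 backgrounds (the interaction) was 0.07 ± 0.43. Comparisons that share a group, such as MKO and EMdKO each against control, are not independent of one another.

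A target was called where its adjusted p was under 0.05. In the mean LysM-Cre comparison 1 of the 5 tested members was called, Ebi3, beside 0.044% of all 13633 tested targets (6 targets), and since Ebi3 was selected on this contrast nothing is read from that. The other called targets were Cxcl13, Gbp2b, Marco, Mrgprg and Siglece. None of the 5 tested members was called in any other comparison, beside 0.0293% of targets called in MKO against control, 0.0293% in EMdKO against control, 0.0147% in EMdKO against EKO, 0.00734% in EMdKO against MKO and 0.924% in the mean Krt14-Cre comparison. No target was called by edgeR in EKO against control (0%) or for the interaction (0%), where 940 and 465 targets had an unadjusted p under 0.05. DESeq2 called 51 and 3 targets there, and limma-voom 4 and 0. DESeq2 also called Ebi3 in MKO against control (1.40), EMdKO against control (1.32) and EMdKO against EKO skin (1.45, log2 fold changes). The edgeR call of Ebi3 in the mean LysM-Cre comparison was lost without EMdKO mouse 1 (1.42 ± 0.23), EKO mouse 3 (1.42 ± 0.23) or EKO mouse 4 (1.41 ± 0.23), though the value moved by little. The value ran between 1.31 without control mouse 1 and 1.59 without control mouse 2. Without EKO mouse 1 it was 1.36 ± 0.22 and without MKO mouse 1 it was 1.47 ± 0.22.

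The separation of all carriers from all others was seen for 10 of the 13633 targets (0.0734%). Besides Ebi3 these were Gbp2b, Gdap10, Jchain, Marco, Plcb4, Ppm1k, Septin3, Siglece and 1 target with no symbol. In single comparisons, 1.37% of targets had every MKO mouse above every control mouse, 2.23% every EMdKO mouse above every control mouse and 2.86% every EMdKO mouse above every EKO mouse. Ebi3 was the only member among them in these 3 comparisons. For EKO above control, the share was 1.03% of targets and no member, and for EMdKO above MKO it was 3.71% of targets, with none of the tested members. Il27, which was too low to be tested, also had every EMdKO mouse above every MKO mouse.

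**Figure D2:**
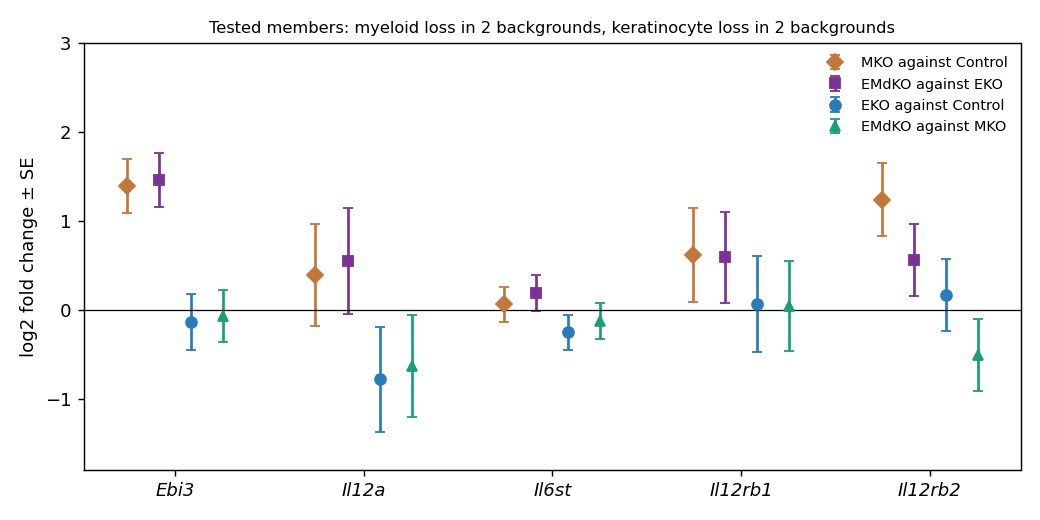
Log2 fold change with its standard error (y axis) of the 5 tested genes (x axis) for LysM-Cre in 2 backgrounds (MKO against control, EMdKO against EKO) and Krt14-Cre in 2 backgrounds (EKO against control, EMdKO against MKO). Ebi3 lies at 1.39 and 1.46 for LysM-Cre and at -0.14 and -0.07 for Krt14-Cre, while Il6st lies between -0.25 and 0.19.

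The alpha chains that Ebi3 can join were read at low counts and did not share its pattern. Il27, which makes IL-27 with Ebi3, had 11, 9, 12 and 8 counts in EMdKO mice, 4, 3, 4 and 4 in MKO mice, 6, 18, 7 and 1 in EKO mice and 3, 30, 1 and 3 in control mice. That was 0.840 to 1.14 CPM in EMdKO, 0.379 to 0.627 in MKO, 0.131 to 1.57 in EKO and 0.0934 to 4.32 in control skin. The 4 EMdKO mice were above the 4 MKO mice and overlapped the other groups. Control mouse 2 alone held 30 of the 37 Il27 counts in control skin, and it was also the control mouse with the highest Ebi3 and with 3887 counts of Cxcl10, an interferon-induced chemokine that had 67 to 140 counts in the other control mice.

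Il12a, the alpha chain of IL-35 and IL-12, spread widely within each group. It had 2.32, 4.36, 1.62 and 2.94 CPM in EMdKO mice, 7.84, 2.91, 1.43 and 5.27 in MKO mice, 4.75, 0.785, 0.971 and 1.05 in EKO mice and 2.35, 1.87, 4.20 and 4.62 CPM in control mice. All groups overlapped. The log2 fold change was 0.39 ± 0.57 in MKO against control, -0.24 ± 0.58 in EMdKO against control and 0.55 ± 0.59 in EMdKO against EKO skin. In limma-voom with quality weights the value in MKO against control turned to -0.49, and that in EKO against control was -1.76. In EKO against control skin it was -0.78 ± 0.59 with all mice and -1.81 ± 0.56 without EKO mouse 1, whose Il12a level lay above those of the other EKO mice. Without that mouse, the EMdKO against EKO value was 1.57 ± 0.56.

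The other IL-12 and IL-23 chains were read at 0 to 16 counts. Il12b, the beta chain of both, had 0, 2, 1 and 2 counts in EMdKO mice, 0, 4, 1 and 1 in MKO mice, 0, 2, 3 and 1 in EKO mice and 0, 0, 6 and 1 in control mice. It was at 0 in 5 of the 16 libraries, where 3 counts would be 0.249 to 0.470 CPM depending on depth. Il23a, the alpha chain of IL-23, had 16, 4, 7 and 7 counts in EMdKO mice, 1, 11, 5 and 4 in MKO mice, 3, 11, 9 and 7 in EKO mice and 4, 10, 2 and 10 in control mice. Neither gene passed the filter on low counts, so differences between groups were not tested, and all groups overlapped.

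**Figure D3:**
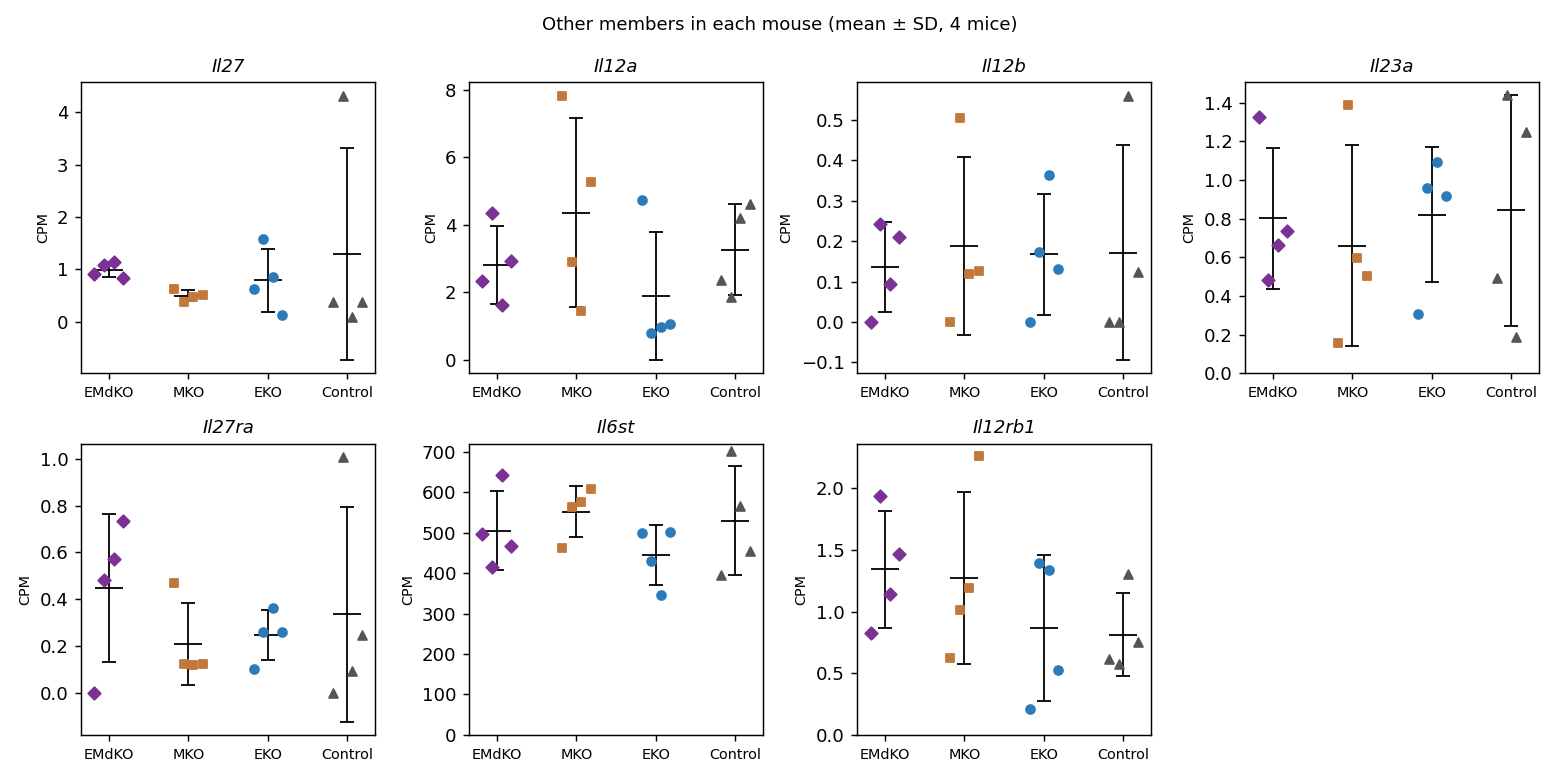
CPM of the other 7 genes (y axes, 1 panel each) in each mouse of the 4 groups (x axis), with the mean and SD of 4 mice. Il12b and Il27ra lie near 0 in all groups, the Il27 panel is stretched by control mouse 2 at 4.32 CPM, and Il6st lies between 345 and 702 CPM with all groups overlapping.

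Of the receptor chains, Il6st was read at 2843 to 6751 counts, and its groups overlapped. This shared signal-transducing chain, used by IL-6, IL-27 and related cytokines, averaged 505 ± 97.6 CPM in EMdKO, 552 ± 62.6 in MKO, 444 ± 74.2 in EKO and 530 ± 135 CPM in control skin (SD, n = 4 each). Its log2 fold changes were -0.07 ± 0.20 in EMdKO against control, 0.06 ± 0.20 in MKO against control and -0.25 ± 0.20 in EKO against control skin. Il27ra, the chain specific to IL-27, had 0, 4, 6 and 7 counts in EMdKO mice, 3, 1, 1 and 1 in MKO mice, 1, 3, 3 and 2 in EKO mice and 0, 7, 1 and 2 in control mice. It was not tested, and all groups overlapped.

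Il12rb2, the IL-12 receptor chain that activates STAT4 in T and NK cells, had 154, 75.0, 68.4 and 167 CPM in EMdKO mice and 96.7, 241, 199.95 and 122 CPM in MKO mice. In EKO mice it had 88.3, 47.7, 82.2 and 96.6 CPM, and in control mice 38.0, 41.7, 70.4 and 129 CPM. Means were 116 ± 51.6 in EMdKO, 165 ± 67.0 in MKO, 78.7 ± 21.5 in EKO and 69.9 ± 42.2 CPM in control skin (SD, n = 4 each). The groups overlapped: 4 of the 8 LysM-Cre carriers were above all 8 other mice, and control mouse 4 was above EMdKO mice 2 and 3 and above MKO mice 1 and 4. The log2 fold change was 1.24 ± 0.41 in MKO against control, 0.73 ± 0.41 in EMdKO against control and 0.56 ± 0.41 in EMdKO against EKO skin, and its mean LysM-Cre difference was 0.90 ± 0.29. Il12rb1, which serves IL-12 and IL-23, had 0.627 to 2.26 CPM in the 8 carriers and 0.206 to 1.40 CPM in the 8 others, from 2 to 18 counts. Its mean LysM-Cre difference was 0.60 ± 0.37.

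Taken over the 5 tested genes, the median log2 fold change was 0.62 in MKO against control, 0.66 in EMdKO against control and -0.14 in EKO against control skin. All targets had medians of 0.00, -0.02 and -0.03 in these comparisons. Because the genes were chosen with Ebi3 in view, and because genes too low in every group were left out, these medians describe the genes and are no evidence of a shared change. Across the 16 libraries, log2 CPM of Ebi3 had a Pearson r of 0.565 with Il12rb1, 0.476 with Il12rb2, 0.456 with Il6st and 0.170 with Il12a. Over deviations from group means r was 0.389 with Il12rb1, -0.16 with Il12rb2, 0.514 with Il6st and -0.28 with Il12a. Genotype, depth and tissue piece are shared by these libraries, and the values are descriptions.

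Genes whose levels were most like that of Ebi3 included several of leukocytes. Over 16 libraries and 12425 targets of sufficient level, the highest Pearson r of log2 CPM was with Siglece (0.929), a myeloid inhibitory receptor that binds sialic acids. Fyb (0.923), an adaptor of leukocytes, Septin3 (0.916), Plcb4 (0.882), a phospholipase C, and Adgre1 (0.880), which encodes the macrophage antigen F4/80, followed. Siglece averaged 8.35 CPM in EMdKO, 8.16 in MKO, 1.66 in EKO and 1.89 in control skin. Ranked by Spearman's rho instead, 4 of the 5 were shared, with Adgre1 first (0.941). Since Ebi3 was selected on its LysM-Cre pattern, genes with that pattern stand high in this list. Over deviations from group means, which leave out the differences between groups, the highest r was with H2-Ob (0.921), Spi1 (0.909), Ciita (0.903), Kcna3 (0.898) and Cd4 (0.886). H2-Ob and Ciita serve antigen presentation by MHC class II, Spi1 encodes PU.1, and Cd4 marks helper T cells.

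**Figure D4:**
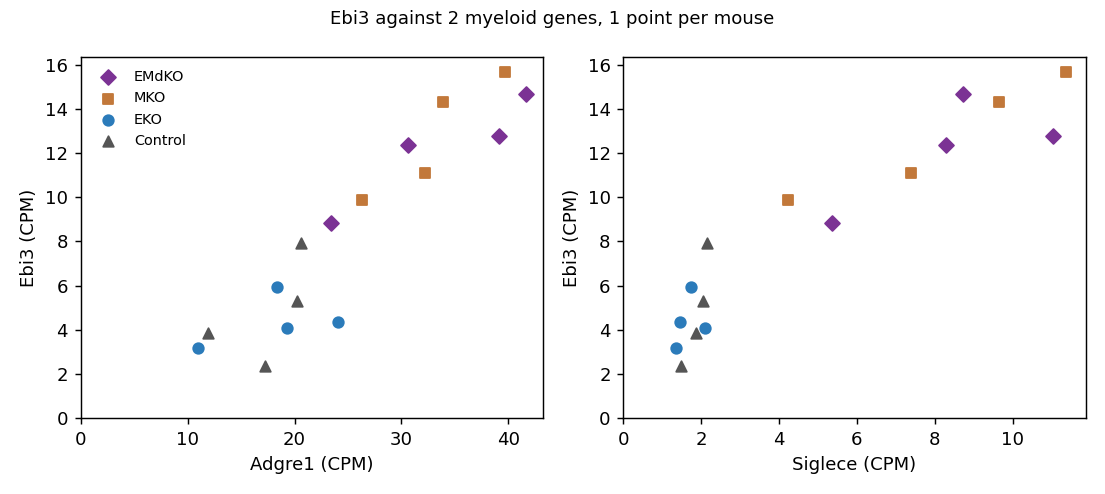
CPM of Ebi3 (y axes) against CPM of Adgre1 and of Siglece (x axes), 1 point per mouse, by group. Mice with LysM-Cre lie to the upper right in both panels, at 23.4 to 41.7 CPM of Adgre1, against 10.9 to 24.03 CPM in the other mice.

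Macrophage RNA was therefore set beside Ebi3. Adgre1 had 30.6, 41.7, 39.1 and 23.4 CPM in EMdKO, 26.3, 39.7, 32.2 and 33.9 in MKO, 10.9, 18.3, 24.03 and 19.3 in EKO and 17.2, 20.6, 20.3 and 11.9 CPM in control mice. Of the 10 macrophage markers, 3 had both LysM-Cre groups' means above the means of both other groups (Adgre1, C1qc and Cd163), 3 had both below (Cd68, Mrc1 and Fcgr1) and 4 had neither (Csf1r, C1qa, C1qb and Mertk). Cd163, a scavenger receptor, averaged 92.4 CPM in EMdKO, 94.1 in MKO, 73.0 in EKO and 62.7 CPM in control skin. Fcgr1 averaged 7.35 CPM in EMdKO, 9.99 in MKO, 15.99 in EKO and 18.6 in control skin, and Cd68 averaged 41.2 in EMdKO, 48.4 in MKO, 56.0 in EKO and 69.1 CPM in control skin. The sum over all 10 macrophage markers ran between 334 and 485 CPM in EMdKO, 397.5 and 505 in MKO, 350.2 and 443 in EKO and 362 and 503 CPM in control skin. C1qa, a defining marker, was at 0 in MKO and control libraries and had at most 1 count elsewhere. C1qb, another C1q gene, averaged 86.0 CPM in EMdKO, 108 in MKO, 82.8 in EKO and 101 in control skin. Whether the C1qa target reads its gene was not tested, so its level is not read as absence of C1qa RNA. Per 100 CPM of summed macrophage markers, Ebi3 was at 2.63 to 3.69 CPM in EMdKO, 1.95 to 3.94 in MKO, 0.914 to 1.47 in EKO and 0.650 to 1.73 in control skin. On this scale carriers did not overlap the others. Per 100 CPM of Adgre1 alone, Ebi3 was at 32.6 to 40.4 CPM in EMdKO, 34.4 to 42.2 in MKO, 18.2 to 32.4 in EKO and 13.7 to 38.5 in control skin, and groups overlapped. Per 100 CPM of Csf1r, a receptor for macrophage growth factors, Ebi3 was at 21.2 to 41.2 CPM in EMdKO, 22.3 to 42.6 in MKO, 7.66 to 13.5 in EKO and 6.15 to 31.2 in control skin. The highest control mouse lay within the range of both LysM-Cre groups, while the control median was 8.53. Carriers and others were thus apart on 1 of the 3 scales, and on the Csf1r scale that control mouse alone made the overlap.

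Other cell types were summed in the same way, with an exact two-sided permutation test of 4 mice against 4 for each of 45 comparisons. None passed after Benjamini-Hochberg adjustment (smallest adjusted p = 0.482). B and plasma cell markers (7 of 8 measured) summed to 6.51 to 12.5 CPM in EMdKO and 7.68 to 38.7 in MKO, against 3.30 to 8.11 in EKO and 4.95 to 6.19 CPM in control skin, and MKO and EMdKO mice were each above all control mice (exact permutation p = 0.0286, the smallest that 4 against 4 allows). Dendritic cell markers summed to 85.6 to 112 CPM in EMdKO, 73.4 to 107 in MKO, 76.7 to 103 in EKO and 65.1 to 134 CPM in control skin. T and NK cell markers (9 of 11 measured) summed to 41.7 to 60.9 CPM in EMdKO, 33.9 to 75.4 in MKO, 27.1 to 56.0 in EKO and 25.8 to 63.2 CPM in control skin. Neutrophil markers were low, at 0.994 to 26.3 CPM over all mice, with Mpo at 0 in EMdKO, MKO and EKO libraries. The part of these cells in the level of Ebi3 was not tested.

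Genes further along or beside the pathway were taken as 5 lists from knowledge of the family, with results on these data already known. In the IL-6 and IL-12 superfamily outside the 9 genes, 10 of 18 listed genes were tested and edgeR called none in any of the 8 comparisons. In the mean LysM-Cre comparison 4 had an unadjusted p under 0.05, which 13.1% of all tested targets had, and DESeq2 called 1 and limma-voom 0. Il11ra1, the IL-11 receptor, averaged 44.0 ± 10.3 CPM in EMdKO, 45.4 ± 4.91 in MKO, 57.0 ± 10.6 in EKO and 68.2 ± 10.7 CPM in control skin (SD, n = 4 each), and its log2 fold change against control was -0.63 ± 0.18 in EMdKO and -0.59 ± 0.18 in MKO skin (edgeR adjusted p = 0.358 and 0.331). Il6ra, the IL-6 receptor, was at 0.62 ± 0.27 in MKO (adjusted p = 0.497) and Osmr, the oncostatin M receptor, at 0.43 ± 0.16 in EMdKO skin (adjusted p = 0.473). Csf3r, the G-CSF receptor, was at -0.89 ± 0.56 in EKO skin (adjusted p = 0.789). By median Csf3r had 5.65 CPM in EKO and 4.94 in control skin, where the highest mouse held 207 of 322 counts. Il6 had 0 counts in all EKO mice and at most 6 in any mouse, and Il23r had 1 to 10 counts. In JAK-STAT signalling, 12 of 17 listed genes were tested and none was called by edgeR, DESeq2 or limma-voom, and 1 had an unadjusted edgeR p under 0.05, in the mean LysM-Cre comparison, against 13.1% of all targets. Pias1, an inhibitor of STAT proteins, was at 0.26 ± 0.16 in EMdKO (adjusted p = 0.746) and 0.22 ± 0.16 in MKO skin (adjusted p = 0.692). For the kinases Jak1 and Jak2 the EKO values were -0.21 ± 0.19 and -0.15 ± 0.16, for Jak3 the EMdKO value was 0.20 ± 0.19, and for Stat5b the MKO value was 0.30 ± 0.24.

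Of 24 listed genes known as outputs of IL-12 and IL-27, such as interferon-induced genes, 20 were tested, and 1, Gbp2b, was called. This guanylate-binding GTPase of interferon responses averaged 3.21 ± 1.59 CPM in EMdKO, 4.39 ± 2.24 in MKO, 0.496 ± 0.215 in EKO and 0.290 ± 0.118 CPM in control skin (SD, n = 4 each). It had 48, 40, 30 and 11 counts in EMdKO mice, 48, 35, 26 and 20 in MKO mice, 3, 6, 3 and 6 in EKO mice and 1, 2, 4 and 3 in control mice. It passed the filter on low counts only through EMdKO and MKO mice, where it is high, so a difference was built into its being tested, and it is not counted as support for a change of the list. With no filter the list likewise had 1 call in each of the comparisons that follow. On the log2 scale it rose by 3.83 ± 0.54 in MKO against control (edgeR adjusted p = 0.0126) and by 3.38 ± 0.54 in EMdKO against control skin (adjusted p = 0.0351), and by 3.25 ± 0.37 in the mean LysM-Cre comparison (adjusted p = 0.000586). Its control level rests on 10 counts in all, and both calls against control were lost in limma-voom and in a fit of only the groups compared, and that in EMdKO against control also with the replicate block. The call in MKO against control was also lost without any 1 of the 4 control mice. The call in EMdKO against control held when EMdKO mouse 4, EKO mouse 1, EKO mouse 4, MKO mouse 1 or MKO mouse 4 was left out, and was lost without any 1 of the others. The call in the mean LysM-Cre comparison held without each mouse. Over the 20 genes, 15 were positive and 5 negative in the mean LysM-Cre comparison, with a median of 0.42, against 0.00 over all targets. In EKO against control 10 were positive and 10 negative, with a median of -0.02. An unadjusted edgeR p under 0.05 was found for 8 genes for LysM-Cre, and for 5 in MKO, 6 in EMdKO and 1 in EKO against control. The share of all targets with one was 13.1%, 9.58%, 8.16% and 6.9%. Cxcl10 was in each of these counts and was lower, at -1.73 ± 0.70, -3.33 ± 1.05, -2.68 ± 1.01 and -2.56 ± 1.01. It was the only gene counted in EKO, and the other genes counted were higher. In control skin it averaged 149 ± 274 CPM (SD), with control mouse 2 at 559 CPM and the other control mice at 8.37 to 14.2. Gbp2b is among the 15 and the 8, and the list was chosen with results on these data known, so these counts are descriptions. Ifng, the interferon that IL-12 is known to induce, was not tested and had 6, 11, 3 and 8 counts in EMdKO, 3, 2, 2 and 4 in MKO, 1, 8, 0 and 6 in EKO and 2, 6, 1 and 0 in control mice.

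Of 13 listed genes of the IL-23 output, 7 were tested and none was called by edgeR with all mice, where 2 had an unadjusted p under 0.05 in the mean LysM-Cre and 4 in the mean Krt14-Cre comparison. Of all targets, 13.1% and 11% had one in these comparisons. DESeq2 called 2 in each of these comparisons, and limma-voom 0 for LysM-Cre and 2 for Krt14-Cre. Without EKO mouse 1, edgeR called 1 in EKO against control, 2 in the mean LysM-Cre and 3 in the mean Krt14-Cre comparison, and without control mouse 2 it called 2 in the last of these. S100a9, an alarmin subunit of keratinocytes and neutrophils, was at 3.77 ± 1.13 in EKO (adjusted p = 0.465) and -3.87 ± 1.43 in MKO skin (adjusted p = 0.379), both against control. It averaged 8.09 ± 3.21 CPM in EMdKO, 0.509 ± 0.264 in MKO, 106 ± 144 in EKO and 7.92 ± 11.2 CPM in control skin (SD, n = 4 each), so that the spread in EKO skin exceeded its mean. S100a8, its partner, was at 3.81 ± 1.24 in EKO skin (adjusted p = 0.556). Cxcl1, a neutrophil chemokine, was at -2.15 ± 0.86 in MKO skin (adjusted p = 0.420). Its control level rested on 60 counts, of which the highest control mouse held 42. Ccl20, a chemokine for CCR6-bearing T cells, was at 1.502 ± 0.594 (adjusted p = 0.513) and Lcn2, an antimicrobial siderophore-binding protein, at 1.78 ± 0.84 (adjusted p = 0.612) in EMdKO skin. The median of the 7 genes was 1.31 in the mean Krt14-Cre comparison, with 6 of 7 positive, and -0.22 in the mean LysM-Cre comparison.

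Of 19 listed inducers of the ligands, such as Toll-like receptors and NF-kB subunits, 18 were tested and none was called by edgeR or DESeq2. In edgeR 3 had an unadjusted p under 0.05 in the mean LysM-Cre comparison, and 5 in EMdKO, 1 in MKO and 3 in EKO against control. The share of all targets with one was 13.1% for LysM-Cre, 8.16% in EMdKO, 9.58% in MKO and 6.9% in EKO against control. In the mean Krt14-Cre comparison 1 was called by limma-voom, and 1 by edgeR without EKO mouse 1. Rel, an NF-kB subunit, averaged 125 ± 26.1 CPM in EMdKO, 77.3 ± 18.8 in MKO, 88.0 ± 25.6 in EKO and 65.2 ± 19.6 CPM in control skin (SD, n = 4 each), with a log2 fold change of 0.94 ± 0.25 in EMdKO against control (adjusted p = 0.353). Batf3, a factor of cross-presenting dendritic cells, was at 1.12 ± 0.44 in EMdKO skin (adjusted p = 0.504). Spi1 was at 0.37 ± 0.21 (adjusted p = 0.596) and Irf7, a factor of interferon induction, at -1.61 ± 0.61 (adjusted p = 0.399) in MKO skin. Irf7 averaged 42.4 ± 49.1 CPM in control skin (SD), where the highest mouse held 802 of 1282 counts. Tlr4 and Tlr3 were at -0.52 ± 0.19 and -0.74 ± 0.29 in EKO skin (adjusted p = 0.608 and 0.643). The median over the 18 genes was -0.04 in the mean LysM-Cre comparison, against 0.00 over all targets.

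**Figure D5:**
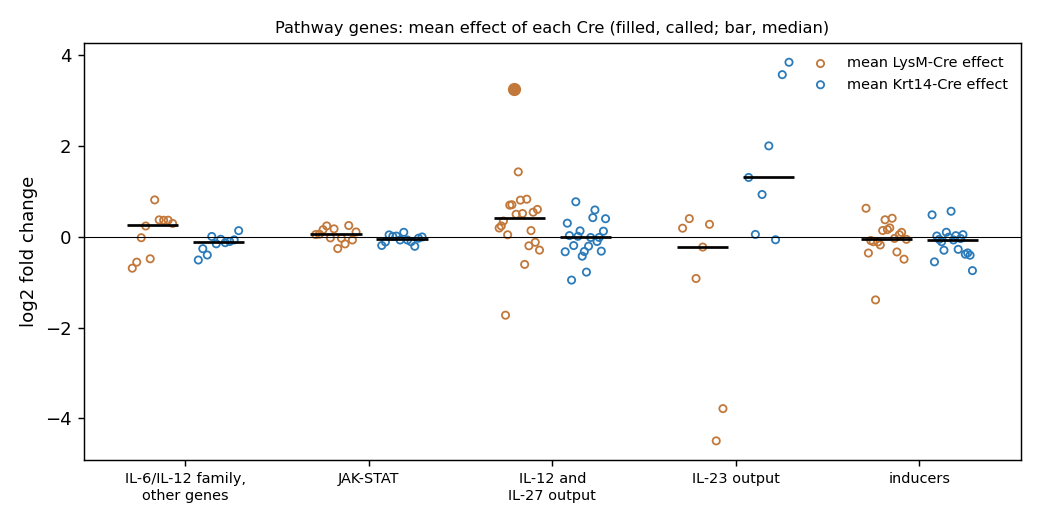
Log2 fold change (y axis) of each tested gene in the 5 lists (x axis) for the mean LysM-Cre and mean Krt14-Cre comparisons, with a bar at each list's median and filled points for called genes. The only filled point is Gbp2b at 3.25 in the LysM-Cre comparison, and the IL-23 output list has medians of -0.22 for LysM-Cre and 1.31 for Krt14-Cre.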

How the data were processed

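RNA from whole skin of 16 mice was read as amplicon libraries with the Ion AmpliSeq Transcriptome Mouse Gene Expression Kit, per the labels' protocols. The authors deposited counts per target for each library. HTSeq 0.6.0 and DESeq2 1.18.1 are listed in the submitters' processing notes, and the genome build of the counts is not given in the sources used here. The 5 HTSeq summary lines, 3.11% to 5.25% of each file's sum, were left out. Symbols were assigned to 22562 of 23930 targets, 22452 by RefSeq GRCm38.p6 and 110 by GENCODE.

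The members and lists were chosen with earlier results of these data known. Counts were tested with edgeR 4.0.16 (quasi-likelihood, TMM scaling, filterByExpr, 1 mean per group over all 16 libraries, R 4.3.3), with Benjamini-Hochberg adjustment over 13633 targets and a threshold of 0.05. The mean LysM-Cre comparison averages MKO minus control and EMdKO minus EKO, the mean Krt14-Cre comparison averages EKO minus control and EMdKO minus MKO, and the interaction is the difference between the 2 LysM-Cre effects. CPM are counts divided by a library's summed counts over the tested targets, adjusted by its TMM factor, and scaled to a common total. Named genes were all members, Zc3h12a and, per list, the called genes or otherwise the 2 genes with the smallest p in each comparison with control. Likeness used log2 CPM with a prior count of 2 among targets whose mean reached 1 on that scale. Ifng, Il6, Il23r, Cxcl10, Fcgr1, Cd68 and Cd163 were named after their values were seen. Alternatives were DESeq2 1.42.0, limma-voom (limma 3.58.1), other scalings and filters, a replicate block, only the groups compared, and leaving out each mouse. The fits were run on simulated data with a common spread, where changes were set in EKO libraries alone and in targets of sufficient level. Such a run does not check the LysM-Cre comparisons or targets at low counts. No 2 libraries were alike within counting noise (the lowest chi-square of any pair, divided by its degrees of freedom, was 14.4). The labels name separate mice, and nothing more is said of their independence. Intervals from 4 mice are wide, with a common biological coefficient of variation of 0.31.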

Additional observations from a re-analysis of the deposited data

Results flagged for a closer look

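Samples far from the other 3 of their group were found in 6 of 56 groups of 4 values checked with Dixon's ratio, where about 1 in 20, or 2.8, would be found by chance. Il12a in EKO mouse 1 had 4.75 CPM, above the other 3 EKO mice. The summed T and NK cell markers stood apart in EMdKO mouse 1 at 60.9 CPM (high), in MKO mouse 1 at 33.9 CPM (low) and in control mouse 1 at 25.8 CPM (low). The summed keratinocyte markers of EKO mouse 1, at 10831 CPM, were below those of the other EKO mice. The summed skeletal muscle markers of MKO mouse 1, at 83094 CPM, were above those of the other MKO mice. All 6 flagged values were from mouse 1 of their group, and every group was among them. What set these samples apart was not tested.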

How the results depend on the processing

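Ebi3 in the mean LysM-Cre comparison stayed called in 7 alternatives (1.36 to 1.48) and in 13 of 16 fits without 1 mouse. Since Ebi3 was selected on this contrast in these same libraries, the refits show how far its value moves and do not support the call. Its log2 fold change without 1 mouse ran between 1.16 and 1.71 in MKO against control, 1.09 and 1.64 in EMdKO against control and 1.33 and 1.65 in EMdKO against EKO. Deviations of same-numbered mice had a median r of -0.11 over 24 pairs (-0.54 to 0.61). Mice of other numbers had a median r of 0.01 over 72 pairs (-0.72 to 0.57). By this measure replicate numbers did not pair the samples, though all values flagged above were from mice numbered 1. With the replicate block, Ebi3 was at 1.48 and still called, and the IL-12 and IL-27 output list had 0 calls in EMdKO against control, where the fit without the block had 1.

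DESeq2 called 51 targets in EKO against control, 112 in MKO against control, 73 in EMdKO against control, 9 in EMdKO against EKO, 146 in EMdKO against MKO, 259 for LysM-Cre, 316 for Krt14-Cre and 3 for the interaction, where edgeR called 0, 4, 4, 2, 1, 6, 126 and 0. It called 1 member in MKO and in EMdKO against control and in EMdKO against EKO. Its list calls were 1 (IL-12 and IL-27 output, EMdKO against EKO), 2 (the same list, LysM-Cre), 1 (superfamily, LysM-Cre) and 2 (IL-23 output, LysM-Cre and Krt14-Cre). Limma-voom called 4, 0, 8 and 8 targets in EKO, MKO and EMdKO against control and EMdKO against MKO, 66 for LysM-Cre and 588 for Krt14-Cre. Its list calls were 0 for the IL-12 and IL-27 output in MKO and EMdKO against control, and 2 (IL-23 output) and 1 (inducers) for Krt14-Cre. With no filter, 3 targets were called in EKO against control, 9 in EMdKO against MKO and 1 IL-23 output gene for Krt14-Cre. With only the groups compared, 1, 10 and 90 were called in MKO and EMdKO against control and EMdKO against MKO, with 0 calls in the IL-12 and IL-27 output list in the first and second of these and 2 in the IL-23 output list in the last. The cause was not tested.

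Without 1 mouse, calls over all targets ranged 0 to 127 (EKO against control), 1 to 5 (MKO against control), 2 to 40 (EMdKO against control), 1 to 3 (EMdKO against EKO), 1 to 95 (EMdKO against MKO), 4 to 25 (LysM-Cre) and 40 to 356 (Krt14-Cre). The highest of these, besides 5 and 3, arose without EKO mouse 1. Members called for LysM-Cre ranged 0 to 1. IL-23 output calls ranged 0 to 1 (EKO against control), 0 to 2 (LysM-Cre) and 0 to 3 (Krt14-Cre), IL-12 and IL-27 output calls 0 to 1 (MKO and EMdKO against control, EMdKO against EKO), and inducers 0 to 1 (Krt14-Cre). For members other than Ebi3 and for summed cell type markers, 9 values moved past their spread and 1151 did not, and none reversed among those called. Counts of under 20 limit Il27, Il12b, Il23a, Il27ra and Il12rb1 in most libraries.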
